A study of Mus musculus with 6 samples.

Results

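Heat shock proteins and chaperones are represented here by 10 genes: the heat-inducible Hsp70 pair Hspa1a and Hspa1b, the constitutive Hsp70 Hspa8, the cytosolic Hsp90 genes Hsp90aa1 and Hsp90ab1, the Hsp110 Hsph1, the Hsp40 co-chaperone Dnajb1, the mitochondrial chaperonin Hspd1, and the small heat shock proteins Hspb1 and Cryab. They were taken by gene identity, with earlier results of these data known, and all 10 were found among the 52636 genes of the count table. RNA was sequenced from whole thoracic aortas of 6 mice aged 12 weeks. The 4 WT mice were untreated C57BL/6J animals. The 2 KO mice (Tgfbr1/2iSMCKO) carried floxed alleles of both TGF-β receptor genes (Tgfbr1f/f.Tgfbr2f/f), the mT/mG reporter and the Myh11-CreERT2 transgene, and had tamoxifen at 2 mg/day for 5 days from 11 weeks of age. Cre is driven by Myh11 sequence, which is active in smooth muscle, from a construct inserted on the Y chromosome, and the study analysed aortas of male mice. The wall that was sequenced also held cells in which Cre does not act. Genotype and tamoxifen differ together between the groups and cannot be told apart. In these bulk samples, fewer cells of a type and less RNA per cell cannot be told apart either.

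Chaperones bind unfolded or newly made proteins and help them reach and keep their folded form. Hsp70 proteins bind exposed stretches of a client under the control of ATP, J-domain proteins such as Dnajb1 bring clients to them and start ATP hydrolysis, Hsp110 proteins exchange the nucleotide, and Hsp90 takes over clients such as kinases and steroid receptors. Small heat shock proteins hold unfolded proteins without using ATP, and Hspd1 with its lid Hspe1 encloses proteins imported into mitochondria. When unfolded proteins build up, the transcription factor HSF1 binds heat shock elements, which are alternating repeats of GAA and its complement TTC, and genes such as Hspa1a, Hspa1b, Hsph1 and Dnajb1 are transcribed within minutes. In the vessel wall, smooth muscle cells hold large amounts of small heat shock proteins, which bind the contractile and intermediate filaments.

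Total estimated counts ran from 21807734 to 25801352 in WT and were 28860598 in KO-1 and 19650983 in KO-2, and the 10 genes held 0.229% to 0.393% of each library. The columns of the table carried codes, and their match to the groups was inferred from these codes. Whole-gene counts of the targeted receptors did not separate the groups: WT libraries had 4510 ± 726 normalised counts of Tgfbr1 (SD, n = 4), while the KO libraries had 5174 ± 858 (SD, n = 2), and Tgfbr2 was at 6240 ± 882 and 5861 ± 108 likewise. These counts include exons outside the floxed parts, so they do not check the labels. The summed level of 8 smooth muscle markers was 883248 to 1042570 normalised counts in WT and 838705 and 998245 in KO-1 and KO-2, and 0 of the 8 passed the test. The 2 KO libraries differed from each other. The sum of 10 cardiac muscle markers was 3107 to 4491 in WT, 30541 in KO-1 and 4198 in KO-2, and 5 passed the test. In 3 of the 10, Tnnt2, Tnni3 and Actc1, both KO libraries were above every WT library. Ryr2 held much of the WT sum, at 2291 to 2667, and was at 1368 in KO-2. Both Ryr2 and Myl4 were below every WT library in KO-2. The sum of 7 white adipocyte markers was 2855 to 5380 in WT, 5846 in KO-1 and 40243 in KO-2, and 3 passed. The mitochondrial genome gave 2.62% to 4.44% of each WT library, but 3.38% of KO-1 and 11.7% of KO-2. In the text, KO-1 and KO-2 stand for the libraries labelled KO.

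Heat shock elements are short, and the sequence around them is shown here for the members in which a search found their repeats. All sequences are from RefSeq on GRCm38.p6, read 5′ to 3′ on the strand of the gene. A window from 250 bases before to 50 bases after a gene start was given for 6 of the 10 members: Hspa1a, Hspa1b, Hspb1, Hsph1, Dnajb1 and Hspd1. Both strands were searched for the paired units GAANNTTC and TTCNNGAA, each of which reads the same on both strands. Of 32817 mouse windows of this length, 7.86% held GAANNTTC, 8.51% held TTCNNGAA and 15.1% held at least 1 of them. The first 3 sequences are the 250 bases before the start, with paired units in capitals, at chr17:34972157-34972406 (minus strand), chr17:34959239-34959488 (minus strand) and chr5:135887669-135887918 (plus strand).
Hspa1a: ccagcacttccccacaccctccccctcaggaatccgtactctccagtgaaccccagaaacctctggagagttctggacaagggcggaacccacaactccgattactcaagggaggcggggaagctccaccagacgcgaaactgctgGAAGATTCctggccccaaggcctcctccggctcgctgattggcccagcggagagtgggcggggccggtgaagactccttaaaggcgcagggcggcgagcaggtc
Hspa1b: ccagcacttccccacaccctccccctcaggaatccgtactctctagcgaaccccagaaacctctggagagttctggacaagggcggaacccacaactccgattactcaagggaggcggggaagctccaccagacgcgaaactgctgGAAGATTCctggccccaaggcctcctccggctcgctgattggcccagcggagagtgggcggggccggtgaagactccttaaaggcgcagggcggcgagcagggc
Hspb1: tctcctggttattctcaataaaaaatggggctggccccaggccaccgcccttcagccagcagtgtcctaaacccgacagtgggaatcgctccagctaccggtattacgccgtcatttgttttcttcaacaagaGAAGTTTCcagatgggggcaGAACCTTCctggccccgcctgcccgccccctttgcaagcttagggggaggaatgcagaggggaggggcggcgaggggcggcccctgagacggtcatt

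The Hspa1a and Hspa1b sequences were equal at 247 of 250 bases, and each held 1 paired unit, GAAGATTC, which begins 104 bases before the start. The Hspb1 sequence held 2 paired units, beginning 117 and 97 bases before the start. Longer runs lay in stretches that are also annotated as exons, and only the run and a few bases on either side are shown, with each GAA or TTC unit in capitals. A run of at least 3 alternating units was found in 0.603% of all mouse windows. Hspd1 held a run of 4 units at chr1:55088053-55088082 (minus strand), 144 bases before one of its starts. Read on the plus strand, this run begins 89 bases before the start of the divergent neighbour Hspe1. The window at the other Hspd1 start held no such run. Hsph1 held a run of 3 units at chr5:149636280-149636308 (minus strand), 15 bases after one of its starts. The Dnajb1 windows held none of the paired units, which says only that these letters are not in these windows.
Hspd1: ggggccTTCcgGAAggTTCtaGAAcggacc
Hsph1: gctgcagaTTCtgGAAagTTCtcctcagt

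KO was compared with WT to ask whether loss of TGF-β receptors in smooth muscle cells, within days of tamoxifen, alters the chaperone transcripts of the aorta. Of the 10 chaperone genes, 1 passed the DESeq2 test at an adjusted p under 0.05, against 10.4% of the 17070 genes tested, and it was Hspd1, which was higher in KO. Over all genes, 5.71% passed as higher and 4.69% as lower in KO, and 0 of the 10 passed as lower. By unadjusted p under 0.05 the count was also 1, and edgeR's quasi-likelihood test called 0 of the 10. The median log2 fold change was -0.07 over the 10 genes and 0.01 over all genes tested. The 10 genes were all tested, so no member was lost to a filter on low values. For the classical stress-inducible members, the libraries within a group differed by more than the group means did.

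**Figure D1:**
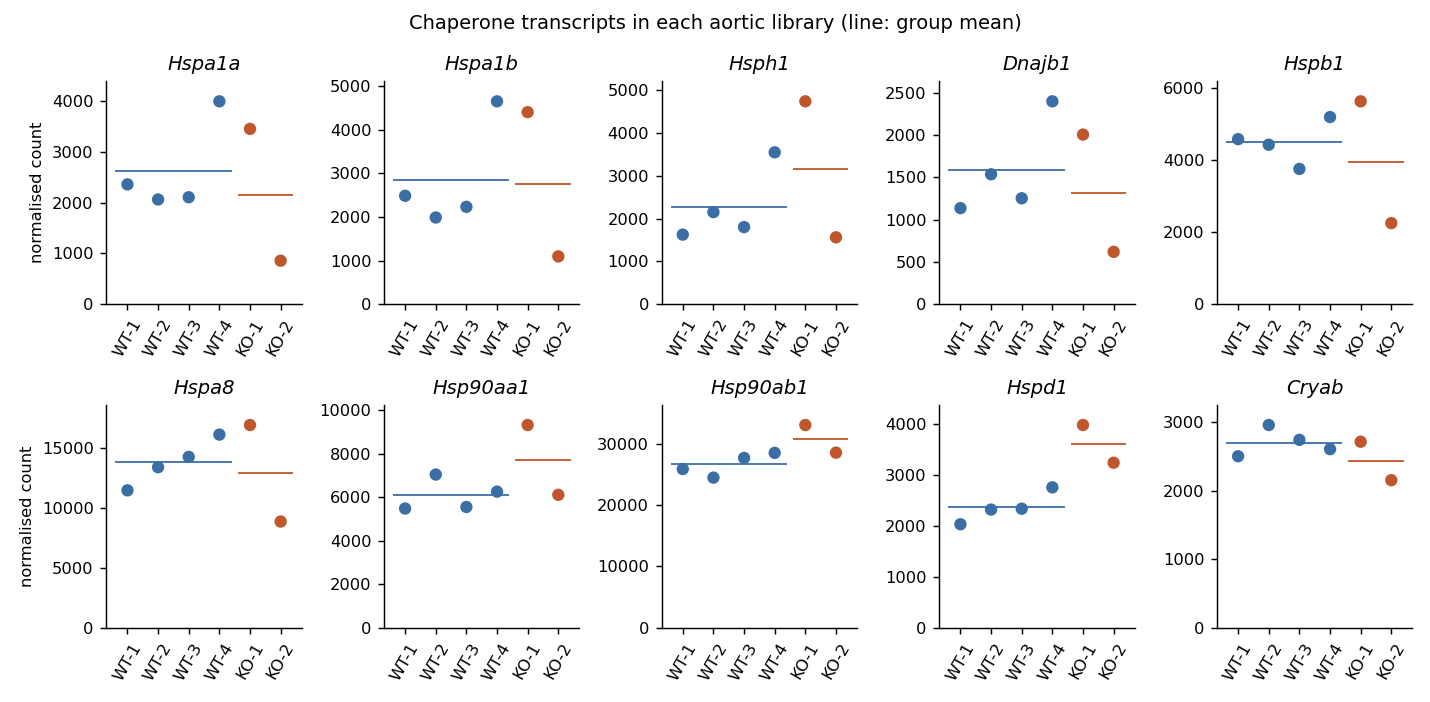
Normalised counts (counts divided by the DESeq2 size factor, y axis from 0, a separate scale for each gene) of the 10 chaperone genes in each library (x axis), with WT in blue, KO in orange and a line at each group mean. In Hspa1a, Hspa1b, Hsph1, Dnajb1 and Hspb1 the KO-1 and KO-2 points lie on either side of the WT mean, while in Hspd1 both lie above all 4 WT points.

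Hspd1 encodes Hsp60, the barrel of the mitochondrial chaperonin (ENSMUSG00000025980, GRCm38 chr1:55077835-55088243, minus strand). Its normalised count was 2029, 2316, 2333 and 2751 in the WT libraries 1 to 4, and 3971 and 3234 in KO-1 and KO-2. Both KO libraries lay above every WT library, a pattern found in 17.9% of the genes tested. The WT mean was 2357 ± 297 (SD, n = 4) and the KO mean 3603 ± 522 (SD, n = 2), a log2 fold change of 0.61 (SE 0.19, 95% interval 0.24 to 0.98), with a DESeq2 adjusted p of 0.0165. Across 13 alternatives the log2 fold change stayed positive, from 0.46 to 0.76, and 8 of them passed the threshold. The call was lost without KO-1 (adjusted p = 0.143), without WT-2 (adjusted p = 0.0636) and with edgeR (adjusted p = 0.0617 with a filter on low counts and 0.146 without), over a range of DESeq2 and edgeR adjusted p from 0.00396 to 0.161. Hspd1 shares 112 exonic bases with Hspe1 on the opposite strand, and whether counting used strand is not stated.

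Hspe1, which encodes Hsp10, the lid of the same chaperonin, was at 1352, 1361, 1312 and 1396 in WT and at 1452 and 1654 in KO-1 and KO-2. Its log2 fold change of 0.20 (SE 0.16, 95% interval -0.12 to 0.51) did not pass (DESeq2 adjusted p = 0.527). Hspa9, the mitochondrial Hsp70 that pulls proteins through the inner membrane, was at 3115, 3496, 3939 and 3826 in WT and at 5264 and 6814 in KO-1 and KO-2. It had a log2 fold change of 0.75 (SE 0.19) and a DESeq2 adjusted p of 0.00141, and it passed in 11 of 13 alternatives. Trap1, the mitochondrial Hsp90, was at 995 to 1165 in WT and at 1369 and 1505 in KO-1 and KO-2, a log2 fold change of 0.38 (SE 0.17) that did not pass (DESeq2 adjusted p = 0.147). Hspd1, Hspe1, Hspa9 and Trap1 had both KO libraries above the WT range, a pattern found in 17.9% of all genes tested. Of the 4, 2 passed, against 10.4% of all genes tested. These 4 genes were put side by side after their values were seen, so the counts are no test. Grpel1 and Grpel2, the nucleotide exchange factors of the mitochondrial Hsp70, differed from them: Grpel1 was at 958 to 1076 in WT and at 1024 and 978 in KO-1 and KO-2, and Grpel2 at 375 to 507, and 418 and 365. Their log2 fold changes were -0.04 (SE 0.17, DESeq2 adjusted p = 0.932) and -0.06 (SE 0.23, DESeq2 adjusted p = 0.916). Beside these values, transcripts of the mitochondrial genome took a larger share of KO-2 than of any WT library and a share within the WT range in KO-1. Marker sums of several other cell types were also higher in both KO libraries than in every WT library. Brown adipocytes, which are rich in mitochondria, were at 628 to 975 in WT and at 1556 and 12620 in KO-1 and KO-2 (4 of 7 genes passing). In 4 of these 7 genes both KO libraries were above every WT library. The others did not rise in KO-1: Ucp1 was at 40 there, against 0 to 123 in WT and 6861 in KO-2. Ppargc1b was at 59 in KO-1, below every WT library, and Elovl3 was at 0. Red blood cells were at 859 to 5990 in WT and at 11076 and 61684 in KO-1 and KO-2 (4 of 4 tested). Endothelial cells were at 12147 to 21214 in WT and at 30126 and 29434 in KO-1 and KO-2 (4 of 7), and macrophages at 8955 to 10833, and 15522 and 17786 (7 of 8). Mesothelial cells were at 207 to 408 in WT and at 848 and 2208 in KO-1 and KO-2 (5 of 5), and fibroblasts at 113923 to 125997, and 143199 and 167369 (2 of 7). The part of any of these in the Hspd1 and Hspa9 results was not tested.

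Hspa1a and Hspa1b encode the same inducible Hsp70, which is scarce in unstressed cells and made in quantity after heat or other proteotoxic stress. Each is a gene of 1 exon on chromosome 17 (Hspa1a: ENSMUSG00000091971, chr17:34969190-34972156; Hspa1b: ENSMUSG00000090877, chr17:34956436-34959238, both minus strand). Their transcripts are 99.2% identical over 2201 aligned bases, so the division of reads between them is uncertain. Hspa1a was at 2360, 2063, 2107 and 3997 normalised counts in the WT libraries, and at 3454 and 857 in KO-1 and KO-2. Hspa1b was at 2485, 1987, 2232 and 4650 in WT and at 4402 and 1095 in KO-1 and KO-2.

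For both genes the KO-2 library was the lowest of the 6, WT-4 was the highest, and KO-1 lay above 3 of the 4 WT libraries. The KO-1 value was 4.03 times that of KO-2 for Hspa1a and 4.02 times for Hspa1b, and the highest WT library was 1.94 and 2.34 times the lowest. The group difference was a log2 fold change of -0.29 (SE 0.67, 95% interval -1.59 to 1.02, DESeq2 adjusted p = 0.862) for Hspa1a and -0.05 (SE 0.70, 95% interval -1.43 to 1.33, DESeq2 adjusted p = 0.981) for Hspa1b. With the counts of both genes added, the log2 fold change was -0.16 (SE 0.68, DESeq2 adjusted p = 0.930), with a standard error like that of either gene alone. Intervals of this width hold both a 2-fold fall and a 2-fold rise.

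Hsph1, an Hsp110 that exchanges the nucleotide on Hsp70 (ENSMUSG00000029657, chr5:149614287-149636376, minus strand), was at 1627, 2153, 1803 and 3551 in WT and at 4743 and 1563 in KO-1 and KO-2. Dnajb1, the main J-domain partner of inducible Hsp70 (ENSMUSG00000005483, chr8:83608193-83612653, plus strand), was at 1137, 1537, 1253 and 2401 in WT and at 2007 and 619 in KO-1 and KO-2. Both followed the Hspa1 pair, with WT-4 the highest of the WT libraries, KO-1 above 3 or all of them and KO-2 below every other library. The KO-1 value was 3.03 times that of KO-2 for Hsph1 and 3.24 times for Dnajb1. The log2 fold change was 0.47 (SE 0.61, 95% interval -0.72 to 1.66, DESeq2 adjusted p = 0.725) for Hsph1 and -0.27 (SE 0.61, 95% interval -1.46 to 0.92, DESeq2 adjusted p = 0.859) for Dnajb1, so neither difference exceeded the spread between libraries.

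Hspa8 encodes Hsc70, the constitutive Hsp70 that serves ordinary folding and the uncoating of clathrin (ENSMUSG00000015656, chr9:40800984-40810087, plus strand). It was at 11460, 13388, 14246 and 16104 normalised counts in WT and at 16902 and 8862 in KO-1 and KO-2. KO-1 was again the highest library and KO-2 the lowest, but only 1.91 times apart. The log2 fold change was -0.10 (SE 0.25, 95% interval -0.59 to 0.39, DESeq2 adjusted p = 0.877). The reference annotation held 9 genes with stretches at least 95% identical to its transcripts over at least 200 bases. One of them, Gm7232, was not in the count table, and the rest together had 0.648% of the Hspa8 level.

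The cytosolic Hsp90 genes lay closer together across libraries. Hsp90aa1, the more stress-responsive of the pair (ENSMUSG00000021270, chr12:110690605-110702728, minus strand), was at 5481, 7042, 5552 and 6257 in WT and at 9316 and 6113 in KO-1 and KO-2. KO-1 was the highest library, and KO-2 lay within the WT range, giving a log2 fold change of 0.34 (SE 0.21, 95% interval -0.07 to 0.76, DESeq2 adjusted p = 0.349). Hsp90ab1, the constitutive Hsp90 (ENSMUSG00000023944, chr17:45567775-45573271, minus strand), was at 25850, 24453, 27657 and 28481 in WT and at 33012 and 28518 in KO-1 and KO-2. Both KO libraries were above every WT library, KO-2 by a margin that is small beside the WT spread. The log2 fold change of 0.21 (SE 0.16, 95% interval -0.10 to 0.52) did not pass (DESeq2 adjusted p = 0.469). Hsp90ab1 and Hspd1 were the 2 members with both KO libraries above all WT libraries, a pattern found in 17.9% of all genes tested. Both KO libraries were below all WT libraries in 0 members, against 16.4% of all genes tested.

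The small heat shock proteins differed from each other. Hspb1, or Hsp27, which binds actin filaments and is phosphorylated in contracting smooth muscle (ENSMUSG00000004951, chr5:135887919-135889563, plus strand), was at 4570, 4416, 3746 and 5182 in WT and at 5618 and 2246 in KO-1 and KO-2. KO-1 was the highest library and KO-2 the lowest, 2.50 times apart, and the log2 fold change was -0.19 (SE 0.30, 95% interval -0.77 to 0.40, DESeq2 adjusted p = 0.786). Cryab, or αB-crystallin, which binds desmin filaments in muscle (ENSMUSG00000032060, chr9:50751325-50756636, plus strand), was at 2507, 2963, 2746 and 2610 in WT and at 2719 and 2157 in KO-1 and KO-2. It had the steadiest values after Hsp90ab1 within WT, where the highest library was 1.18 times the lowest. Its log2 fold change was -0.15 (SE 0.18, 95% interval -0.49 to 0.19, DESeq2 adjusted p = 0.689). Cryab shares 252 exonic bases with Hspb2 on the opposite strand, so reads there could be counted for either gene if strand was not used.

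**Figure D2:**
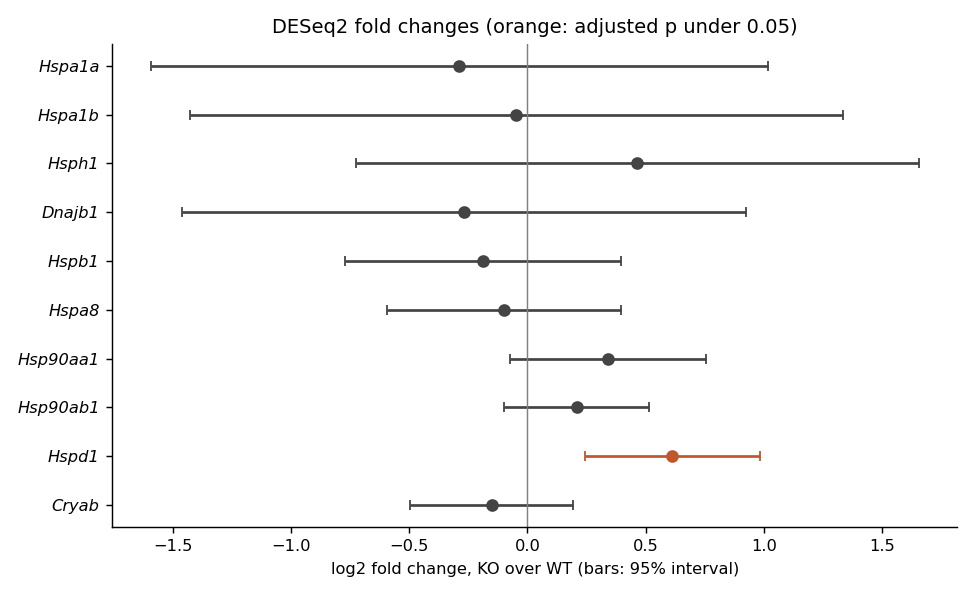
Log2 fold change of KO over WT from DESeq2 for the 10 chaperone genes (x axis), with bars for the 95% interval. The interval of Hspd1, 0.24 to 0.98, lies above 0, and those of the other 9 genes include 0 and are widest for Hspa1b, Hspa1a, Dnajb1 and Hsph1.

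The libraries were then compared one by one, since several of the members moved together among them. Hspd1 and Hsp90ab1 were also highest in KO-1 and, within WT, in WT-4, but their KO-2 values were above every WT library. KO-1 and KO-2 differed by more than 2-fold in 5 of the 10 genes (Hspa1a, Hspa1b, Hsph1, Dnajb1 and Hspb1), against 16.2% of all genes tested. The median size of the log2 ratio of KO-1 to KO-2 was 1.13 over the members and 0.37 over all genes tested. Of the 10 genes, 6 were highest in KO-1, 7 were lowest in KO-2, and 8 were higher in WT-4 than in the other WT libraries. The members share their 6 libraries, so these counts describe 6 samples and are no test.

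Against the mean of the WT libraries, on a scale of log2(normalised count + 0.5), KO-2 stood at -1.56 for Hspa1a, -1.29 for Hspa1b, -1.29 for Dnajb1 and -0.99 for Hspb1, and at 0.46 for Hspd1. On the same scale KO-1 stood at 1.12 for Hsph1, 0.76 for Hspd1 and 0.72 for Hspa1b. The WT-4 library stood at 0.80 for Hspa1b, 0.71 for Hsph1, 0.66 for Dnajb1 and 0.66 for Hspa1a. The untreated library WT-4 lay farther above the WT mean than KO-1 did for Hspa1a, Hspa1b and Dnajb1.

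**Figure D3:**
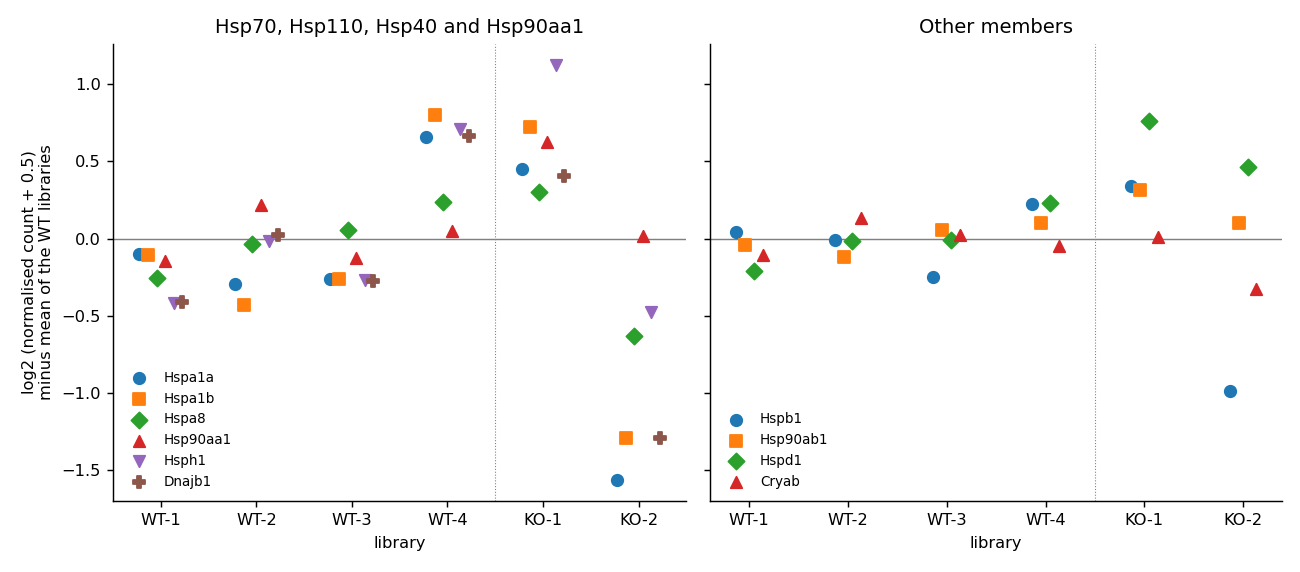
Difference of each library (x axis) from the mean of the 4 WT libraries on the scale of log2(normalised count + 0.5) (y axis), for the Hsp70 genes, Hsph1, Dnajb1 and Hsp90aa1 on the left and the other 4 on the right. On the left most members are above 0 in WT-4 and KO-1 and below 0 in KO-2, and on the right Hspd1 is above all WT points in both KO libraries while Hspb1 stands at -0.99 in KO-2.

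DESeq2's dispersion, the variance between replicates beyond counting error, measures the same spread. It was above the trend for genes of like abundance in 7 of the 10 members, by 11.6 times for Hspa1b, 10.2 times for Hspa1a, 8.55 times for Hsph1 and 7.96 times for Dnajb1. For Hspd1 it was 0.606 times the trend, for Cryab 0.364 times and for Hsp90ab1 0.243 times. The median ratio of gene dispersion to trend was 3.39 over the members and 0.425 over all genes tested.

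The calls depended on which KO library entered the test. Without KO-1, 5 of the 10 members passed the DESeq2 test as lower in the remaining KO library, against 8.42% of the genes tested in that setting: Hspa1a (log2 fold change -1.62), Hspb1 (-0.99), Hspa8 (-0.64), Dnajb1 (-1.35) and Hspa1b (-1.37). Without KO-2, 2 passed as higher, against 3.27% of the genes tested: Hspd1 and Hsp90aa1 (log2 fold change 0.63, adjusted p = 0.0345). With 1 KO library left, the fit assumes that it varies as the WT libraries do. The cardiac marker sum was highest in KO-1, and the adipocyte marker sum and the share of mitochondrial transcripts were highest in KO-2. The part of these in the difference between the KO libraries was not tested.

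Levels can be compared between genes only per length, so counts were divided by the length of each gene's merged exons and scaled to 1 common total per library (TPM). In WT the order of the members was Hsp90ab1, Hspb1, Hspa8, Cryab, Hsp90aa1, Hspa1b, Hspd1, Hspa1a, Dnajb1 and Hsph1. Hsp90ab1 stood at 1254 ± 139 TPM (SD, n = 4), Hspb1 at 614 ± 100.3, Hspa8 at 456 ± 89.2 and Cryab at 259 ± 29.4. The rest of the order ran from Hsp90aa1 at 219 ± 35.4 TPM through Hspa1b at 144 ± 69.3, Hspd1 at 127 ± 23.2, Hspa1a at 126 ± 50.1 and Dnajb1 at 70.6 ± 29.2 to Hsph1 at 45.0 ± 19.6. Neighbours in this order overlapped in WT, except that Hsp90ab1 lay above Hspb1 and Hspa8 above Cryab in every WT library compared with every other. The inducible Hspa1a ranked 1041 and Hsp90ab1 ranked 71 among 52489 genes with a length, of which 24129 had a mean WT level above 0. In KO-2 the Hspa1a level was 35.8 TPM, below its lowest WT level of 100.1 TPM, and in KO-1 it was 192 TPM.

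Other genes of the chaperone system were examined as lists. Of 79 listed genes outside the 10, 75 were tested and 7 passed the DESeq2 test (9.33%, near the 10.4% of all genes), 4 higher and 3 lower in KO. KO-1 and KO-2 differed by over 2-fold in 3 of the 75, Ahsa2, Ptges3 and Hspb6, against 16.2% of all genes tested. The median size of the log2 ratio of KO-1 to KO-2 was 0.32, against 0.37 over all genes tested. Of the 7, Hspb7 had the largest change. This small heat shock protein, which keeps actin filament assembly in check in muscle, was at 22284, 20808, 26970 and 21884 in WT and at 6969 and 11215 in KO-1 and KO-2. The log2 fold change of Hspb7 was -1.34 (SE 0.22, DESeq2 adjusted p = 9.33e-08) and passed in all 13 alternatives.

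Hspb2, a muscle small heat shock protein and the divergent neighbour of Cryab, was at 1184, 1202, 910 and 775 in WT and at 543 and 536 in KO-1 and KO-2. Its log2 fold change was -0.92 (SE 0.23, DESeq2 adjusted p = 0.00191) and passed in 12 of 13. Hspb6, or Hsp20, which is phosphorylated in relaxing smooth muscle, was at 5053 to 6835 in WT, 1690 in KO-1 and 15329 in KO-2. The KO libraries therefore lay on opposite sides of WT for Hspb6, in the reverse order to Hspb1. The part of the cardiac and adipocyte markers in the values of these small heat shock proteins was not tested. In all, 2 of the 5 tested members of this list passed, both lower, against 4.69% of all genes tested. Hspb9 and Cryaa had 0 counts in all libraries.

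Among the HSP70 family, 2 of 9 passed, both higher, against 5.71% of all genes: Hspa9 (above) and Hspa12a. Hspa12a, a distant relative, was at 150 to 181 in WT and at 271 and 350 in KO-1 and KO-2 (log2 fold change 0.90, DESeq2 adjusted p = 0.00721). Among 15 HSP90 co-chaperones, 2 passed as higher and 1 as lower, against 5.71% and 4.69% of all genes. Cacybp rose by 0.81 on the log2 scale (DESeq2 adjusted p = 0.0177), with 680 to 1209 in WT and 1688 and 1557 in KO-1 and KO-2. Chordc1 rose by 0.73 (DESeq2 adjusted p = 0.0387), with 782 to 1165 in WT and 1944 and 1207 in KO-1 and KO-2, and without KO-1 the log2 fold change was 0.34 (DESeq2 adjusted p = 0.461). Fkbp5, an immunophilin and a well known target of the glucocorticoid receptor, changed by -0.92 on the log2 scale (DESeq2 adjusted p = 0.0275), with 573 to 1202 in WT and 563 and 427 in KO-1 and KO-2. Without KO-2 it was at -0.73 (DESeq2 adjusted p = 0.325). Of the alternatives, 7 of 13 called Cacybp, 6 called Chordc1 and 6 called Fkbp5.

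The remaining lists held no gene that passed the DESeq2 test. They gave 0 of 2 other HSP90 genes, 0 of 12 HSP70 co-chaperones and 0 of 14 J-domain proteins. The list of chaperonins, which also held prefoldin subunits (Pfdn genes), gave 0 of 14. Heat shock factors and their binding protein gave 0 of 4 tested, and chaperones of the endoplasmic reticulum (ER) 0 of 12. Hsf1, the factor that drives the inducible members, was at 1006, 1005, 976 and 969 in WT and at 920 and 792 in KO-1 and KO-2, a log2 fold change of -0.21 (SE 0.17, DESeq2 adjusted p = 0.529). Hsbp1, which binds heat shock factors, stood 0.17 higher on the log2 scale in KO and Hsp90b1, the Hsp90 of the ER, 0.34 higher (DESeq2 adjusted p = 0.631 and 0.110). Bag3, a co-chaperone that HSF1 also induces, was at 2554 to 3435 in WT and at 3894 and 3341 in KO-1 and KO-2 (log2 fold change 0.23, DESeq2 adjusted p = 0.517), and Bag6 had a log2 fold change of -0.14 (adjusted p = 0.668). The J-domain genes with the highest normalised counts, Dnajb5 and Dnaja2, had log2 fold changes of 0.06 and 0.12, and the chaperonin genes with the highest, the cytosolic subunits Tcp1 and Cct6a, had 0.02 and 0.21, with DESeq2 adjusted p of 0.518 or more. Calr and Serpinh1, which help fold secreted glycoproteins and collagen in the ER, had log2 fold changes of 0.46 (DESeq2 adjusted p = 0.118) and -0.01 (DESeq2 adjusted p = 0.986).

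**Figure D4:**
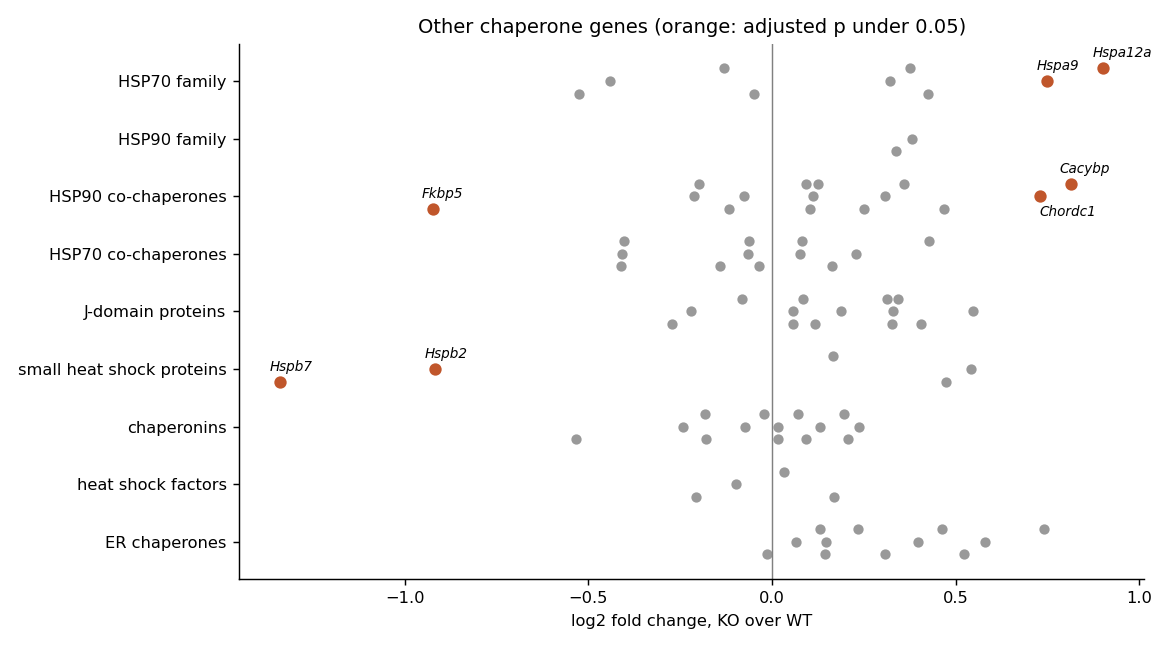
Log2 fold change of KO over WT (x axis) for each tested gene of 9 chaperone lists (rows), the 10 members left out, with genes that passed the DESeq2 test in orange and named. Hspb7 and Hspb2 lie farthest to the left with Fkbp5, at -1.34, -0.92 and -0.92, and Hspa12a and Cacybp farthest to the right of those that passed, at 0.90 and 0.81.

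Immediate early genes, whose transcripts also rise within minutes of a stimulus, were examined as a further list. Of 16, 0 passed as higher, against 5.71% of all genes, and 4 as lower in KO, against 4.69%: Nr4a1 (log2 fold change -1.55), Fosb (-1.62), Ier3 (-1.02) and Atf3 (-0.89). Nr4a1 was at 3858, 3435, 2444 and 2450 in WT and at 1185 and 892 in KO-1 and KO-2. Atf3, a stress-responsive transcription factor, was at 2339, 2365, 1623 and 3019 in WT and at 1395 and 1133 in KO-1 and KO-2. It was highest in WT-4, as Hspa1a and Dnajb1 were, but most genes of this list were highest in WT-1. For example, Fos was at 3157 in WT-1 and 636 in WT-4, and Egr1 at 7013 and 2441. The summed level of this list was 31051 to 58645 in WT, with 32626 in WT-4, and 21608 and 31218 in KO-1 and KO-2. Any link between these genes and the inducible chaperones was not tested.

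Last, the genes whose levels over the 6 libraries ran most like the Hsp70 system and Hsp90aa1 were found by Pearson correlation with the mean standardised profile of Hspa1a, Hspa1b, Hspa8, Hsp90aa1, Hsph1 and Dnajb1. Among 11437 genes with a mean of at least 100 normalised counts, 277 had an r above 0.9. The 5 with the highest were Nt5dc3 (r = 0.995), Ahsa2 (r = 0.994), Ptpn11 (r = 0.993), Dgkd (r = 0.992) and Edem1 (r = 0.992), each over n = 6 libraries. These values describe few libraries, each of which gives all genes its own depth and composition, and they are the highest of many. Ahsa2, an activator of the Hsp90 ATPase, was at 713, 844, 819 and 1099 in WT and at 1309 and 567 in KO-1 and KO-2, the same order of high and low libraries as Hsph1. It shares 2137 exonic bases with Usp34 on the opposite strand.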

How the data were processed

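Per the labels and the study's methods, reads were trimmed with Trim Galore, aligned to GRCm38 with HISAT2 and quantified with StringTie on GENCODE M15. The deposited table holds estimated counts, already whole and not scaled for depth. How they were made whole and whether strand was used are not stated. Columns were matched to groups from their codes.

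The 2 KO libraries were compared with the 4 WT libraries by DESeq2 1.42.0 in R 4.3.3 (Wald test, Benjamini-Hochberg over all genes, threshold 0.05). A normalised count is the count over its library's DESeq2 size factor. Alternatives were edgeR 4.0.16 with and without a filter, other scaling, a filter of 10 counts in 2 libraries, no mitochondrial genes, a replicate block and leaving out each library. The code was tested on simulated data. Positions and exon lengths came from GENCODE M21, copies from blastn 2.17.0 (at least 95% over 200 bases). The labels name no batch, and the p-values measure the spread between these libraries only. Named genes were the 10 members, passing genes of each list (at most 4) or else the 2 with the highest mean normalised count, which is not scaled for length, and the 5 most alike. Hspe1, Grpel1, Grpel2, Hspb6 and Trap1 were named for their relation to members. The members and lists were chosen with earlier results of these data known.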

Additional observations from a re-analysis of the deposited data

Results flagged for a closer look

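Of 30 sets of 4 WT values checked (members, other called chaperones, marker sums and the mitochondrial share), 1 had a library far from the rest by Dixon's test at the 95% level, where 1.5 would be found at 1 in 20. It was Hspa1a, with a normalised count of 3997.01 in WT-4, whose gap to the next WT library was 0.846 of the range of the group. Without WT-4, the log2 fold change of Hspa1a was -0.009, against -0.29 with all libraries. Those of Hspa1b and Dnajb1 turned to 0.30 and 0.01, and none of these genes passed the DESeq2 test.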

How the results depend on the processing

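The number of members that passed was 1, and 0 with edgeR with or without a filter and with the replicate block. It ran from 0 (without WT-2) to 5 (without KO-1) when 1 library was left out, and the cause was not tested. Members passing as lower ran from 0 to 5 and as higher from 0 to 2 over the libraries left out, and 0 passed as higher with edgeR in either form or the replicate block. The count of other chaperone genes that passed, 7, was 4 by edgeR with a filter, 1 by edgeR without it and 4 with the replicate block, and it ran from 4 (without WT-1) to 11 (without KO-1) when 1 library was left out. Leaving out 1 library gave log2 fold changes from -1.62 to 0.40 for Hspa1a, -1.37 to 0.64 for Hspa1b, -0.64 to 0.30 for Hspa8, -0.99 to 0.34 for Hspb1, -0.55 to 1.06 for Hsph1, -1.35 to 0.35 for Dnajb1 and -0.33 to 0.017 for Cryab, with the sign turning in each of these 7 genes. For Hsp90aa1, Hsp90ab1 and Hspd1 the sign stayed positive. The log2 fold change of Hspa1b was 0.032 when total counts were used as size factors. Hspd1 had an adjusted p of 0.161 with the replicate block. Over all genes, 1775 passed in the main test, 996 with edgeR with a filter, 526 with edgeR without a filter and 628 with the replicate block. Same-numbered WT and KO libraries did not deviate together from their group means (r = -0.13 and -0.02). With 2 KO libraries the deviation of KO-2 is the reverse of that of KO-1, so these values cannot exclude a pairing. Of 132 member values under alternatives, 111 kept their direction and side of the threshold. Depth was not the limit for the members, whose counts were 504 or more in every library, while 2 KO libraries limit every comparison.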
